A study of Homo sapiens with 4 samples.

Results

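The genes described here are the transcription factor NRF2 (gene symbol NFE2L2), its inhibitor KEAP1, genes known to be driven by NRF2, and the further enzymes that remove peroxides and superoxide or keep glutathione and thioredoxin reduced. The members are the rows of the gene table whose symbol is on a list of 36 names. The table holds 35 of the 36 among its 22637 genes, and GSTP1 was not analysed here.

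RNA-seq was performed on 4 human prostate adenocarcinoma cell lines with 1 library per line. LNCaP is a castration-sensitive line that responds to androgen, and C4-2B descends from LNCaP and is castration-resistant. LN-OlapR came from LNCaP and 2B-OlapR from C4-2B, each by long exposure of the parental line to rising doses of olaparib, a PARP inhibitor, and both resistant lines were then kept in the drug. All 4 lines are labelled untreated, since cells were plated without selection agent before RNA was taken. The plating time is 48 hours in the series description and longer in the study's methods. Each resistant line is a single derived line, so that resistance to the drug, long growth in it and drift of the subline cannot be told apart. The comparison of LN-OlapR with LNCaP is called the LN pair, and that of 2B-OlapR with C4-2B the 2B pair. These 2 pairs address how olaparib-resistant cells differ from the cells they came from, and C4-2B against LNCaP gives the difference between the parental lines.

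NRF2 is a transcription factor that KEAP1 marks for degradation in unstressed cells. Oxidants and electrophiles modify KEAP1, and NRF2 then accumulates, pairs with a small MAF protein and binds the antioxidant response element in front of its target genes. Its targets make and recycle glutathione, reduce thioredoxin and peroxiredoxins, supply NADPH, store iron and break down heme and quinones. KEAP1 controls NRF2 mainly as a protein, so that the NFE2L2 transcript alone does not report NRF2 activity. Activation of the pathway in cancer cells is known for raising tolerance to oxidants and to several drugs.

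The letters of the antioxidant response element are the part of these genes that the pathway reads, and they are shown for the searched members that carry them just before a transcription start. Promoter windows from RefSeq on GRCh38.p14, each 300 bases long with 250 bases before the start and 50 after it, were matched by symbol for 26 of the 35 measured members. GSS, SLC7A11, SOD1, TXN2, FTH1, PRDX6, HMOX1, PRDX1 and GSR had no window and were not searched. Each window was searched on both strands for the core TGACNNNGC, in which N is any base. The core was present in a window of 7 of these 26 members, or 26.9%, beside 16.1% of the 27305 genes with a window. The members had 39 windows and all genes 35116, so that more windows per gene were searched for the members. With only the bases before the start counted, 6 members or 23.1% held it, beside 13.2% of all genes. In GCLM and KEAP1 the core reads TGACTAAGC, and in ME1 and AIFM2 it reads TGACTCAGC. The 8 sites lying before a start are printed below, 5′ to 3′ on the strand of the gene, with the core in capitals and 10 bases on either side. Where the capitals begin with GC, the core lies on the opposite strand.
GCLM, chr1:93909446-93909474, minus strand, 34 bases before the start: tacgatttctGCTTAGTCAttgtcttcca
KEAP1, chr19:10502784-10502812, minus strand, 31 bases before the start: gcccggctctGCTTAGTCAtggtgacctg
KEAP1, chr19:10502807-10502835, minus strand, 54 bases before the start: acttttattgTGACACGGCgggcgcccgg
ME1, chr6:83431170-83431198, minus strand, 137 bases before the start: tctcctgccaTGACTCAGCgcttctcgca
AIFM2, chr10:70132829-70132857, minus strand, 22 bases before the start: cagcacgagtGCTGAGTCAcgccccgccc
TXNRD1, chr12:104215670-104215698, plus strand, 99 bases before 1 of its starts: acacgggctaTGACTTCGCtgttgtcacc
TXNRD1, chr12:104286920-104286948, plus strand, 102 bases before another start: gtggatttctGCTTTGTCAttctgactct
PGD, chr1:10398853-10398881, plus strand, 201 bases before the start: cctcgccgggGCAATGTCAtctaggtgct
These are matches of letters and were not tested as binding sites. No match says only that the letters are not within the window, and many known elements lie farther from the start. Among the members with a printed site, the log2 ratios in the 2B pair ran from 0.11 for TXNRD1 to 0.56 for ME1 among the 5 genes measured well enough, and in the LN pair from -0.47 for PGD to 0.31 for ME1.

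The 4 libraries held 19950537 to 26394267 counts in all. Levels are given as normalized CPM, the count scaled to the library total times a TMM factor. A log2 ratio was read only where a gene averaged at least 1 normalized CPM over the 2 libraries compared. Each log2 ratio is followed by its 95% interval, which covers counting error only. The interval after a median instead covers the spread among the genes of the list. With 1 library per line no spread between cultures was measured, and no difference below has a replicate check or a p-value. In RNA from a whole culture, fewer cells with a transcript and less of it per cell cannot be told apart. As to the labelled cell type, 9 of 9 luminal prostate markers were above 0 in every library, with summed levels of 3474 to 6480 normalized CPM. LNCaP, the reference of the LN pair and of the parental comparison, stood apart in the secreted kallikreins. KLK3 was at 53.1 normalized CPM there and at 1870.1 to 2685 in the other 3 libraries, and KLK2 at 126 beside 233 to 748. The part of this difference in the results was not tested. Markers of other cell types had summed levels of at most 16.6 normalized CPM per list, in the neuroendocrine list. The ranges were 7.19 to 16.3 for stroma, 2.61 to 12.2 for endothelium, 0.67 to 5.36 for leukocytes and 0.11 to 0.56 for basal epithelium, and their part in the results was not tested.

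Taken as a set, the antioxidant genes had a median log2 ratio near 0 in both resistant lines. In the LN pair, 0 of 35 members were 2-fold higher or more, beside 4.64% of all 15373 genes past the filter, and 0 were 2-fold lower or more, beside 4.83%. In the 2B pair, 0 of 34 members were 2-fold higher or more, beside 4.42% of 15527 genes, and 0 were 2-fold lower or more, beside 5.65%. With so few members, a count of 0 lies near these shares. The shares cover all genes from 1 normalized CPM up, and no set of genes of like level was compared. The median log2 ratio of the members was 0.07 (-0.11 to 0.17) in the LN pair, with 19 members higher and 16 lower, and 0.09 (-0.07 to 0.20) in the 2B pair, with 22 higher and 12 lower. The median of all genes was -0.00 in each pair. When libraries were scaled by their totals alone, the members' median in the LN pair was -0.02 and that of all genes -0.09. Together the 35 genes took 0.693% of all counts in LNCaP and 0.712% in LN-OlapR, against 0.712% for C4-2B and 0.744% for 2B-OlapR.

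**Figure D1:**
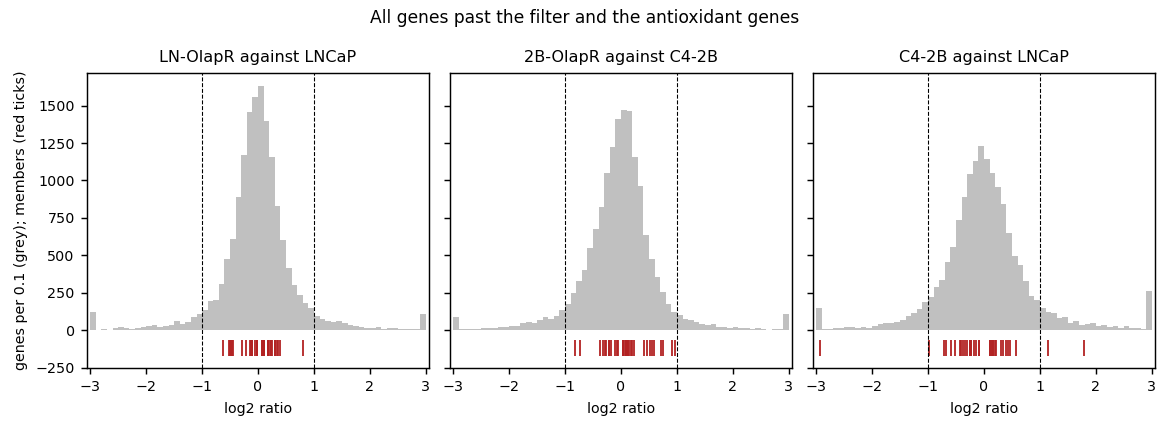
Number of genes in each 0.1 step of the log2 ratio (grey bars, all genes past the filter, values beyond 3 placed in the end bars) with each antioxidant gene as a red tick, for the LN pair, the 2B pair and C4-2B against LNCaP. Dashed lines mark 2-fold, which 0 members passed in either resistant line, whereas NQO1, TXNRD2 and AIFM2 passed it between the parental lines.

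At a lower fold, single members stood out, and GLRX alone did so in both pairs. In the LN pair, NQO1 was the only member at least 1.5-fold higher (1 of 35, beside 10.6% of all genes), and GLRX the only member at least 1.5-fold lower (1 of 35, beside 10.8%). In the 2B pair, SRXN1, GLRX, HMOX1, GCLC and PRDX2 were at least 1.5-fold higher (5 of 34, beside 10.7%), and FTL and SLC7A11 at least 1.5-fold lower (2 of 34, beside 13.5%). The share was near the background for the higher members of the 2B pair and below it in the other 3 cases. Of the 34 members past the filter in both pairs, 8 reached 1.5-fold in at least 1 pair and 0 did so in the same direction in both. By sign alone, 12 were higher in both resistant lines, 5 lower in both, 7 higher in LN-OlapR and lower in 2B-OlapR, and 10 lower in LN-OlapR and higher in 2B-OlapR. Scaling by total counts turned the sign of KEAP1 and TXNRD2 in the LN pair and of GSS and TALDO1 in the 2B pair. Counts over both pairs were not made for all genes, so those of the members do not show whether their agreement was unusual.

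**Figure D2:**
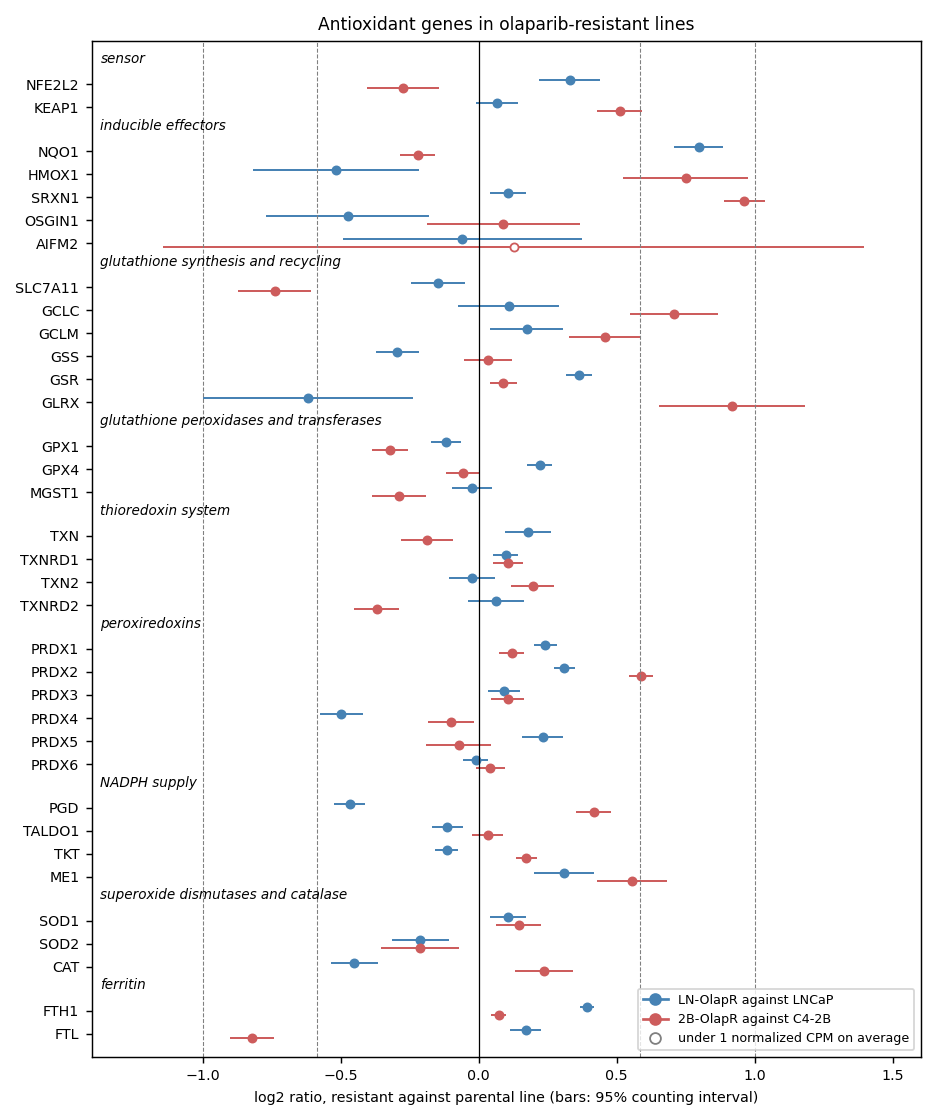
Log2 ratio of each antioxidant gene in LN-OlapR against LNCaP (blue) and 2B-OlapR against C4-2B (red), grouped by role, with 95% counting intervals and dashed lines at 1.5-fold and 2-fold. NQO1 (0.80) is highest in the LN pair and SRXN1 (0.96) in the 2B pair, and GLRX lies on opposite sides of 0 in the 2 pairs.

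The factor and its inhibitor stayed under 1.5-fold in both pairs. NFE2L2, on chromosome 2 from 177227595 to 177392697 in the GENCODE 29 annotation of GRCh38, was at 49.6 normalized CPM in LNCaP and 62.4 in LN-OlapR, against 53.5 for C4-2B and 44.3 for 2B-OlapR. Its level was thus higher in LN-OlapR than in LNCaP, with a log2 ratio of 0.33 (0.22 to 0.44), and lower in 2B-OlapR than in its parent, at -0.27 (-0.40 to -0.15). KEAP1, on chromosome 19 from 10486120 to 10503741, was at 121 normalized CPM in LNCaP and 127 in LN-OlapR, against 114 for C4-2B and 162 for 2B-OlapR. The 2B-OlapR library held the highest KEAP1 level of the 4, with a log2 ratio to C4-2B of 0.51 (0.43 to 0.59). In the LN pair the KEAP1 ratio was 0.07 (-0.00 to 0.14), and it was -0.02 when libraries were scaled by total counts. In 2B-OlapR, then, the NFE2L2 transcript was lower and the KEAP1 transcript higher than in the parental line.

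The inducible effectors showed no common direction. NQO1, the quinone reductase most often used to read NRF2 activity, was at 66.9 normalized CPM in LNCaP and 116 in LN-OlapR, against 229.7 for C4-2B and 197 for 2B-OlapR. It was 1.74-fold higher in LN-OlapR, a log2 ratio of 0.80 (0.71 to 0.88), higher than 93.1% of all genes, and slightly lower in 2B-OlapR at -0.22 (-0.28 to -0.16). Even so, LN-OlapR remained below both lines of the C4-2B lineage. NQO1 lies on chromosome 16 from 69706996 to 69726951.

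HMOX1, heme oxygenase 1, which degrades heme to biliverdin, iron and carbon monoxide, had few counts, 146 to 431 per library. Its levels were 8.96 normalized CPM in LNCaP and 6.26 in LN-OlapR, against 12.4 for C4-2B and 20.8 for 2B-OlapR. This gave a log2 ratio of -0.52 (-0.81 to -0.22) in the LN pair and 0.75 (0.53 to 0.97), or 1.68-fold, in the 2B pair, so that HMOX1 and NQO1 differed in opposite directions within each pair. Scaling by total counts put the LN ratio of HMOX1 at -0.60, past 1.5-fold. HMOX1 lies on chromosome 22 from 35380361 to 35394214.

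SRXN1, sulfiredoxin, which repairs overoxidized peroxiredoxins, had the highest ratio of any member in the 2B pair. It was at 159.8 normalized CPM in LNCaP and 172 in LN-OlapR, against 118 for C4-2B and 231 for 2B-OlapR. The ratio of 1.95-fold in the 2B pair, 0.96 (0.89 to 1.03) on the log2 scale, lay just under 2-fold and above 95.3% of all genes, whereas the LN pair gave 0.11 (0.04 to 0.17). SRXN1 lies on chromosome 20 from 646615 to 653370 and shares exon sequence on the same strand with a second annotated gene, AL121758.1. The identifier of that gene is not among the 22637 measured, so no split of the counts is seen. OSGIN1, a growth inhibitor induced by oxidative stress, had 154 to 247 counts and ratios of -0.48 (-0.76 to -0.19) and 0.09 (-0.18 to 0.36). AIFM2, the ubiquinone reductase also called FSP1 that opposes ferroptosis, gave -0.06 (-0.49 to 0.37) in the LN pair. With 9 and 10 counts in the libraries of C4-2B and 2B-OlapR, it did not pass the filter in the 2B pair.

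**Figure D3:**
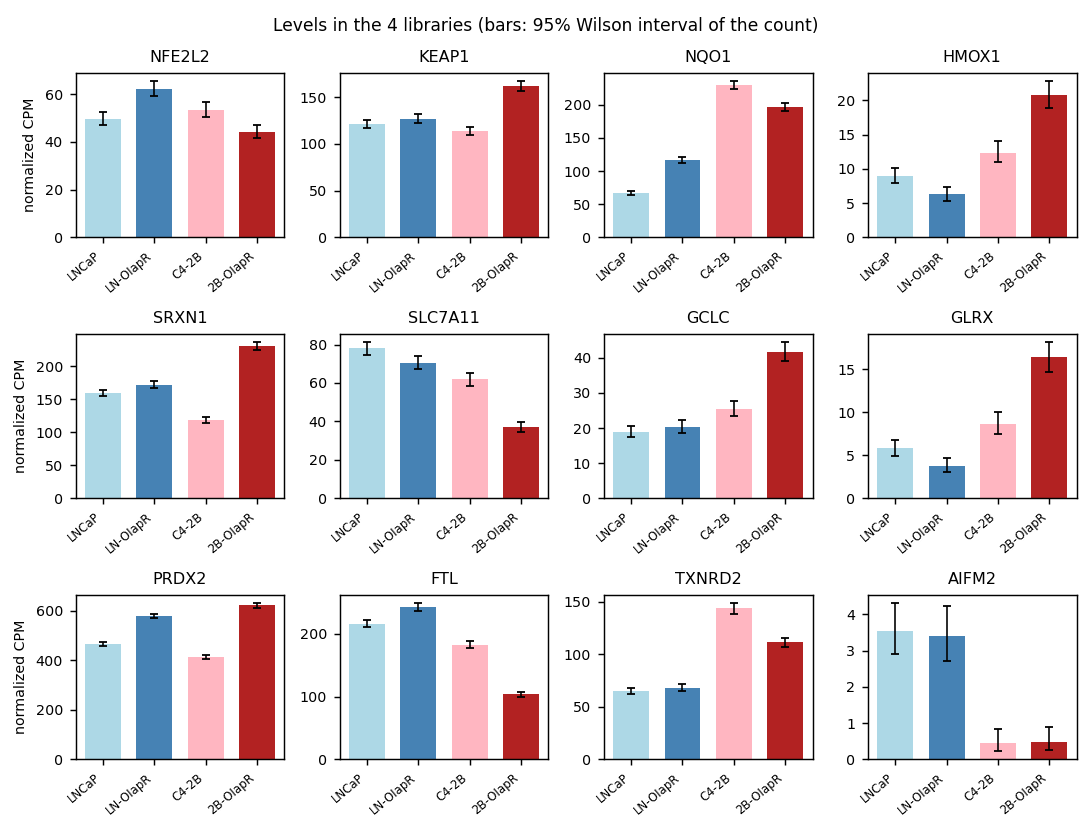
Normalized CPM in the 4 libraries for NFE2L2, KEAP1, NQO1, HMOX1, the other members at least 1.5-fold changed in a pair, TXNRD2 and AIFM2, with 95% Wilson intervals of the count. Light bars are the parental and dark bars the resistant lines, and AIFM2 at 3.53 and 3.39 in the LNCaP lineage stands above 0.44 and 0.48 in the C4-2B lineage.

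Of the genes that make and recycle glutathione, both subunits of glutamate cysteine ligase, the rate-limiting enzyme, were higher in 2B-OlapR, while the cystine importer was lower. GCLC, the catalytic subunit, was at 18.9 normalized CPM in LNCaP and 20.4 in LN-OlapR, against 25.6 for C4-2B and 41.7 for 2B-OlapR. Its 2B ratio was 1.63-fold, 0.71 (0.55 to 0.86) on the log2 scale, and its LN ratio 0.11 (-0.07 to 0.29). GCLM, the modifier subunit and the carrier of the first site printed above, had the same order of lines, with 36.3, 41.0, 41.6 and 57.1 normalized CPM in LNCaP, LN-OlapR, C4-2B and 2B-OlapR. The log2 ratios of GCLM were 0.46 (0.33 to 0.58) for 2B-OlapR and 0.17 (0.04 to 0.30) for LN-OlapR. GCLC lies on chromosome 6 from 53497341 to 53616970, where the annotation places an overlapping noncoding gene on each strand.

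SLC7A11, the cystine/glutamate antiporter that brings in cystine for glutathione, was at 78.1 normalized CPM in LNCaP and 70.5 in LN-OlapR, against 61.9 for C4-2B and 37.1 for 2B-OlapR. The 2B ratio was 1.67-fold lower, -0.74 (-0.87 to -0.61), and the LN ratio -0.15 (-0.24 to -0.05). So in 2B-OlapR the importer and the ligase subunits differed in opposite directions from the parental line. SLC7A11 lies on chromosome 4 from 138164097 to 138242349 and is overlapped by the antisense gene SLC7A11-AS1.

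GLRX, the cytosolic glutaredoxin that removes glutathione from protein thiols, was the member with the widest gap between the pairs. It had 156 counts or 5.80 normalized CPM in LNCaP and 88 or 3.77 in LN-OlapR, against 177 or 8.65 for C4-2B and 339 or 16.4 for 2B-OlapR. The LN ratio was 1.53-fold lower, -0.62 (-0.99 to -0.24), and the 2B ratio 1.89-fold higher, 0.92 (0.66 to 1.18). The 2B ratio exceeded the LN ratio by 1.54 (1.08 to 1.99), an interval for counting error only. GLRX lies on chromosome 5 from 95751319 to 95823005. The remaining genes of this group changed less. Glutathione reductase, GSR, gave 0.36 (0.32 to 0.41) in the LN pair and 0.09 (0.04 to 0.14) in the 2B pair, and glutathione synthetase, GSS, gave -0.29 (-0.37 to -0.22) and 0.03 (-0.05 to 0.12), the latter -0.01 after scaling by total counts.

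The 3 glutathione peroxidases and transferases among the measured members were below C4-2B in the 2B-OlapR library, though by less than 1.5-fold. Other measured genes of these families lay outside the members and differed in both directions in this pair. GPX1, the cytosolic selenoenzyme, gave -0.32 (-0.38 to -0.26), MGST1, the microsomal transferase, -0.29 (-0.38 to -0.20), and GPX4, the selenoenzyme that reduces lipid hydroperoxides and restrains ferroptosis, -0.06 (-0.11 to -0.00). In the LN pair the same genes gave -0.12 (-0.17 to -0.07), -0.02 (-0.09 to 0.04) and 0.22 (0.18 to 0.26). Their summed level was 743 normalized CPM in LNCaP and 776 in LN-OlapR, against 597 for C4-2B and 522 for 2B-OlapR.

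The thioredoxin system had 0 of 4 members past 1.5-fold in either pair. TXNRD1, the cytosolic thioredoxin reductase, itself a selenoprotein and NRF2 target, was within 1.08-fold of the parental line in both pairs, at 0.10 (0.06 to 0.14) and 0.11 (0.06 to 0.16). Its partner TXN, thioredoxin, gave 0.18 (0.10 to 0.26) in the LN pair and -0.19 (-0.28 to -0.10) in the 2B pair. Of the mitochondrial partners, thioredoxin TXN2 gave -0.02 (-0.10 to 0.06) and 0.20 (0.12 to 0.27). Its reductase TXNRD2 gave 0.06 (-0.04 to 0.16), or -0.02 after scaling by total counts, and -0.37 (-0.45 to -0.29).

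Among the peroxiredoxins, which reduce hydrogen peroxide with electrons from thioredoxin or, for PRDX6, from glutathione, PRDX2 was the highest in both pairs. PRDX2, a cytosolic member on chromosome 19 from 12796820 to 12801859, was at 467 normalized CPM in LNCaP and 579 in LN-OlapR, against 414 for C4-2B and 622 for 2B-OlapR. The log2 ratios were 0.31 (0.27 to 0.35) and 0.59 (0.55 to 0.63), the latter on the 1.5-fold line and at 0.54 when scaled by total counts. The level in each resistant line was above that in both parental lines. PRDX1, cytosolic as well, gave 0.24 (0.20 to 0.28) and 0.12 (0.08 to 0.16), and the mitochondrial PRDX3 gave 0.09 (0.04 to 0.14) and 0.11 (0.05 to 0.16). PRDX4, the peroxiredoxin of the endoplasmic reticulum, was lower in LN-OlapR at -0.50 (-0.57 to -0.42) and gave -0.10 (-0.18 to -0.02) in the 2B pair. PRDX5 gave 0.23 (0.16 to 0.30) and -0.07 (-0.19 to 0.04), and PRDX6 stayed within 1.03-fold in both.

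The enzymes that supply NADPH through the pentose phosphate pathway and malic enzyme had opposite leanings in the 2 pairs. In 2B-OlapR all 4 were above the parental level, at a median log2 ratio of 0.29, though TALDO1 at 0.03 (-0.02 to 0.09) turned to -0.01 when scaled by total counts. In LN-OlapR 3 of 4 were below LNCaP, with a median of -0.11. PGD, the phosphogluconate dehydrogenase that releases NADPH, was at 280.1 normalized CPM in LNCaP and 203 in LN-OlapR, against 187 for C4-2B and 249.8 for 2B-OlapR. The ratios of PGD were -0.47 (-0.52 to -0.41) in the LN pair and 0.42 (0.36 to 0.48) in the 2B pair, a gap of 0.88 (0.80 to 0.96). Transketolase, TKT, gave -0.12 (-0.15 to -0.08) and 0.17 (0.14 to 0.21), and transaldolase, TALDO1, gave -0.11 (-0.17 to -0.06) in the LN pair. ME1, malic enzyme 1, was the exception with a higher level in both resistant lines, at 0.31 (0.21 to 0.41) and 0.56 (0.43 to 0.68). The summed level of the 4 enzymes was 1038 normalized CPM in LNCaP and 920 in LN-OlapR, against 1070 for C4-2B and 1232 for 2B-OlapR.

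The superoxide dismutases were within 1.16-fold of the parental line in both pairs. Cytosolic SOD1 gave 0.11 (0.04 to 0.17) and 0.14 (0.07 to 0.22). Mitochondrial SOD2 gave -0.21 (-0.31 to -0.11) and -0.21 (-0.35 to -0.07). Its exons overlap those of WTAP on the other strand and of a second annotated SOD2 gene on the same strand. Only 1 measured gene has the symbol SOD2, so no split of its counts is seen. Catalase, CAT, which breaks down hydrogen peroxide in peroxisomes, gave -0.45 (-0.53 to -0.37) in the LN pair and 0.24 (0.13 to 0.34) in the 2B pair.

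The ferritin chains diverged in 2B-OlapR. FTH1, the heavy chain, which oxidizes iron for storage, was at 1104 normalized CPM in LNCaP and 1449 in LN-OlapR, against 1399 for C4-2B and 1472 for 2B-OlapR. FTL, the light chain, was at 216 normalized CPM in LNCaP and 243 in LN-OlapR, against 182 for C4-2B and 103 for 2B-OlapR. The FTL ratio in the 2B pair was 1.77-fold lower, -0.82 (-0.90 to -0.74), the lowest of any member there, while FTH1 gave 0.07 (0.05 to 0.10). In the LN pair both chains were higher, FTH1 by 0.39 (0.37 to 0.41) and FTL by 0.17 (0.12 to 0.22). FTL lies on chromosome 19 from 48965301 to 48966878 and FTH1 on chromosome 11 from 61959718 to 61967660. Both have processed pseudogenes that could take or lend reads. Listed pseudogenes held up to 10.4% of the FTH1 count and 6.54% of the FTL count in a library, and adding them kept each ferritin ratio on the same side of 0 and of 1.5-fold.

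The members were also divided into 18 established NRF2 targets and 16 other antioxidant enzymes. Of the targets, 11 of 18 were higher in the LN pair with a median log2 ratio of 0.11 (-0.12 to 0.24), and 13 of 17, TALDO1 among them, in the 2B pair with a median of 0.11 (0.03 to 0.46). The other enzymes had medians of -0.02 (-0.29 to 0.11) with 6 of 15 higher, and 0.03 (-0.21 to 0.20) with 8 of 15 higher. For the 4 selenoproteins GPX1, GPX4, TXNRD1 and TXNRD2, the median was 0.08 in the LN pair and -0.19 in the 2B pair. For the 4 mitochondrial members PRDX3, TXN2, TXNRD2 and SOD2 it was 0.02 and -0.05.

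The same genes were farther apart between the parental lines. The median size of their log2 ratios, whatever the sign, was 0.30 in C4-2B against LNCaP, 0.18 in the LN pair and 0.22 in the 2B pair, beside 0.37, 0.27 and 0.30 over all genes. In C4-2B against LNCaP, NQO1 and TXNRD2 were at least 2-fold higher (2 of 35, beside 8.00% of 15580 genes), and AIFM2 at least 2-fold lower (1 of 35, beside 7.18%). The NQO1 ratio was 3.43-fold, 1.78 (1.70 to 1.86) on the log2 scale. TXNRD2, on chromosome 22 from 19875517 to 19941992, was at 65.1 normalized CPM in LNCaP and 68.0 in LN-OlapR, against 144 for C4-2B and 111 for 2B-OlapR. Its ratio between the parental lines was 2.21-fold, 1.14 (1.06 to 1.23). Exons of genes on the other strand also overlap NFE2L2, NQO1, AIFM2, PRDX1, PRDX2 and FTH1, and those of a gene on the same strand overlap NFE2L2 and OSGIN1. Whether reads were counted by strand is not given in the sources used here, so counts of these genes are uncertain to that extent. Identifiers of the overlapping genes at NQO1, OSGIN1 and PRDX2 are not among the 22637 measured.

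AIFM2, on chromosome 10 from 70098223 to 70132934, had a count of 95 in LNCaP and 79 in LN-OlapR, against 9 for C4-2B and 10 for 2B-OlapR. It was 7.65-fold lower in C4-2B than in LNCaP, -2.94 (-3.90 to -1.97), with 0.905% of all genes lower still, and the resistant line of each lineage lay within the counting interval of its parent's level. PRDX5, a peroxiredoxin of mitochondria, peroxisomes and cytosol, lay just under 2-fold. Its levels were 122 normalized CPM in LNCaP and 143 in LN-OlapR, against 61.8 for C4-2B and 58.7 for 2B-OlapR, with a ratio between the parental lines of -0.98 (-1.07 to -0.88). All 3 members of the superoxide dismutase and catalase group were lower in C4-2B, SOD1 at -0.41 (-0.48 to -0.34), SOD2 at -0.69 (-0.80 to -0.57) and CAT at -0.72 (-0.81 to -0.63). The members' median was -0.09 (-0.25 to 0.16) beside -0.02 for all genes, with 16 higher and 19 lower. This comparison shares C4-2B with the 2B pair and LNCaP with the LN pair.

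Levels of different genes were compared only after division by the length of the longest annotated transcript. On this scale of normalized CPM per kb, FTH1 was the highest member in every library, at 899 in LNCaP and 1198 in 2B-OlapR. PRDX1 came next in every library at 332 to 402, and PRDX2 was at 241 to 362. AIFM2 was the lowest in every library, at 0.14 to 1.09, and GLRX was under 5 throughout, at 1.11 to 4.80. Within the thioredoxin system, TXN at 99.7 to 120 exceeded TXN2 at 58.5 to 89.5, and TXNRD1 at 70.3 to 87.9 exceeded TXNRD2 at 20.6 to 45.6. GCLM at 7.48 to 11.8 lay above its partner GCLC at 4.96 to 10.9 in each library. The SOD2 value of 2.69 to 5.01 rests on an annotated transcript of 14266 bases, the longest among the members.

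**Figure D4:**
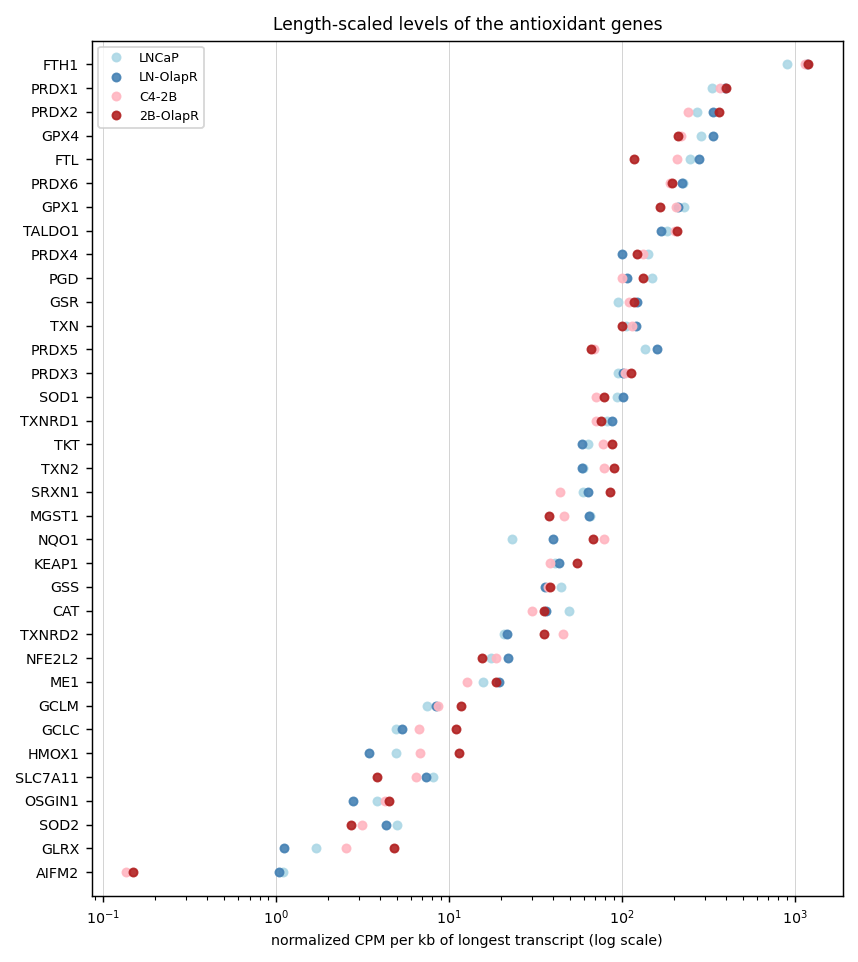
Level of each antioxidant gene in normalized CPM per kb of its longest annotated transcript (log axis), with 1 point per library, ordered by the mean over the 4 libraries. The genes span from AIFM2 at 0.14 in C4-2B to FTH1 at 1198 in 2B-OlapR.

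Genes around the pathway were taken from lists chosen by function. Of 15 partners and regulators of NRF2, the median log2 ratio was 0.03 in the LN pair and 0.00 in the 2B pair. SQSTM1, the autophagy receptor that binds KEAP1 and is itself an NRF2 target, had the highest ratio of the 15 in both, at 0.84 (0.79 to 0.88) and 0.87 (0.83 to 0.91). Its levels were 252 normalized CPM in LNCaP and 451 in LN-OlapR, against 327 for C4-2B and 597 for 2B-OlapR, so that each resistant line was above both parental lines. The lowest ratios were those of TRIM21, a ubiquitin ligase, in the LN pair at -0.68 (-0.94 to -0.41) and SESN2, a stress-induced sestrin, in the 2B pair at -1.38 (-1.60 to -1.16).

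Of 30 further NRF2 targets, 26 were in the table and 20 passed the filter in each pair. Their median was 0.12 (-0.25 to 0.45) in the LN pair, where 1 gene was 2-fold higher or more (beside 4.64% of all genes) and 1 was as much lower (beside 4.83%), and 0.15 (-0.18 to 0.35) in the 2B pair, where 0 passed 2-fold in either direction (beside 4.42% higher and 5.65% lower). The extremes were CBR3, a carbonyl reductase, at 1.46 (1.12 to 1.80) and PTGR1, a prostaglandin reductase, at -1.01 (-1.18 to -0.83) in the LN pair. In the 2B pair they were EPHX1, microsomal epoxide hydrolase, at 0.59 (0.55 to 0.62) and FECH, which inserts iron into heme, at -0.71 (-0.78 to -0.65).

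The other glutathione and thioredoxin genes, 28 of 32 in the table, were more spread than the members, with a median size of the log2 ratio of 0.35 in the LN pair and 0.44 in the 2B pair. All genes had median sizes of 0.27 and 0.30. In the LN pair 5 of 24 were 2-fold higher or more, beside 4.64% of all genes, and 1 was as much lower, beside 4.83%. In the 2B pair 0 of 25 were 2-fold higher or more, beside 4.42%, and 5 were as much lower, beside 5.65%. GGT1, the gamma-glutamyltransferase that breaks down glutathione outside the cell, was highest in the LN pair at 2.20 (1.93 to 2.48). MSRA, which repairs oxidized methionine, was highest in the 2B pair at 0.83 (0.50 to 1.17). GSTA1, a glutathione transferase, was lowest in both. It had 657 counts in LNCaP and 203 in LN-OlapR, a log2 ratio of -1.49 (-1.71 to -1.26), and 57 counts for C4-2B but 2 for 2B-OlapR, a ratio of -4.54 (-6.37 to -2.71).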

How the data were processed

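RNA was sequenced from stranded mRNA libraries (KAPA) of 4 cell lines, 1 library each. The authors deposited estimated counts per gene, not scaled between libraries. STAR, Partek and the build GRCh38 (hg38) are named in the submitters' processing notes, and the annotation is not given in the sources used here. Every gene of the deposited table sums to at least 10 over the 4 libraries. The estimated counts were rounded to whole numbers, and libraries were scaled with TMM factors (edgeR 4.0.16, R 4.3.3). Later steps used Python 3.11.15 with numpy 2.4.6, pandas 2.3.3 and matplotlib 3.10.9. Log2 ratios used a pseudocount of 0.5 counts and genes whose mean reached 1 normalized CPM in the 2 libraries. The 95% intervals are normal on the log2 ratio, Wilson on levels and shares, and binomial for medians. They cover counting error, or for medians the spread among genes, never that between cultures. A count of 3 was taken as the floor, 0.112 to 0.147 normalized CPM per library.

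As there was 1 library per line, no model was fitted and no p-value computed. Genes were called at 2-fold and, for the resistant lines, at 1.5-fold. All members are described by role. Levels in every library are given for NFE2L2, KEAP1, NQO1, HMOX1 and each member at least 1.5-fold changed in a pair, with those of GCLM, PGD, FTH1, TXNRD2, AIFM2 and PRDX5 added after their values were seen. From each other list the highest and lowest ratio per pair are named. The members and lists were chosen with earlier results of these data known. GENCODE 29 gave positions and transcript lengths (SOD2 was matched by symbol, the others by identifier), and RefSeq the promoters. The calculation of ratios and intervals was run on simulated counts of the same genes with 200 genes changed 4-fold. Those counts were drawn with counting error alone, as the intervals assume, so the run does not bear on spread between cultures. The alternatives were scaling by total counts, DESeq2 1.42.0 size factors or upper quartile factors, a pseudocount of 2, a filter at 0.1 or 10 or none, and pseudogene counts added to their parent genes.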

Additional observations from a re-analysis of the deposited data

Results flagged for a closer look

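GLRX was singled out because its difference between resistant and parental line was at least 1.5-fold in each pair and in opposite directions. Its log2 ratio was -0.62 (-0.99 to -0.24) in LN-OlapR against LNCaP and 0.92 (0.66 to 1.18) in 2B-OlapR against C4-2B. With 1 library per line the difference between the pairs was not tested.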

How the results depend on the processing

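The filter decides only which genes are read and cannot change a ratio or its sign. There were 104 log2 ratios of single members over the 3 comparisons. Their sign was kept in all under DESeq2 size factors, upper quartile factors, a pseudocount of 2 and added pseudogene counts. Under total counts it was kept in 100 of 104. The other 4 were KEAP1 and TXNRD2 in the LN pair and GSS and TALDO1 in the 2B pair. Of the 15 ratios past 1.5-fold, 14 remained past it under total counts, PRDX2 in the 2B pair being the exception at 0.54. The members at least 1.5-fold lower in the LN pair numbered 1, but 2 under total counts, where HMOX1 joined GLRX against 1 higher member, and 0 with a minimum mean of 10 normalized CPM, which leaves GLRX out. With the same minimum, 0 members were at least 2-fold lower in C4-2B against LNCaP, since AIFM2 is left out. GLRX in C4-2B against LNCaP, at 0.58, passed 1.5-fold under total counts (0.59) and upper quartile factors (0.60). The members' median ran from -0.02 to 0.10 for LN-OlapR, 0.05 to 0.11 for 2B-OlapR and -0.12 to -0.07 in C4-2B against LNCaP. No replicate could be left out, since each line has 1 library. A fit of both pairs together, blocked on the parental background, was not run, since each pair is described on its own. Depth limits AIFM2 in the C4-2B lineage, with 9 and 10 counts, and GLRX, HMOX1 and OSGIN1, whose intervals are the widest of the other members.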

Other observations

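The values of 4 genes outside the members are added here, chosen after they were seen. NNT, the mitochondrial transhydrogenase that makes NADPH from NADH, differed between the lineages. It had 7 counts in LNCaP and 5 in LN-OlapR, but 367 in C4-2B and 361 in 2B-OlapR. The log2 ratio of C4-2B to LNCaP was 6.01 (4.97 to 7.05), the highest of all listed antioxidant genes, while that of 2B-OlapR to C4-2B was -0.04 (-0.25 to 0.17). GGT1 had a stepwise order over the 4 lines, rising from 4.87 normalized CPM in LNCaP through 22.5 in LN-OlapR and 95.1 in C4-2B to 147 in 2B-OlapR. BACH1, the repressor that competes with NRF2 at antioxidant response elements, was lower in both resistant lines, with 24.2 and 18.0 normalized CPM in LNCaP and LN-OlapR and 16.2 and 9.56 in C4-2B and 2B-OlapR. Its log2 ratios were -0.43 (-0.61 to -0.25) and -0.76 (-1.02 to -0.51). MSRA was higher in both, at 1.25 (0.91 to 1.59) and 0.83 (0.50 to 1.17).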
